A study of Mus musculus with 4 samples.

Results

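Lymphoma cells of tumor #2 were compared with those of tumor #1, 2 MYC-driven B cell lymphomas that arose in 2 separate mice. All 4 libraries of the series entered the comparison, 2 of each tumor, and 11339 of the 34866 genes listed had at least 1 TPM (a level per transcript length, scaled to the same total in each library) in at least 2 libraries and were tested. Both animals were λ-MYC Tom+/ki mice, which carry the λ-MYC transgene (MYC under control elements of the λ light chain locus), 1 Cre allele that is active in antigen-activated B cells and 1 R26tdTom allele, so that B cells in which Cre was active, and their progeny, stay marked by the red fluorescent protein Tomato (Tom). B220+ IgM+ splenocytes of each mouse with a visible IgM+ Tom+ tumor were sorted into Tom- and Tom+ cells, and RNA of each fraction gave 1 library. Age, sex and strain background of these mice are not given in the sources used here, and no normal B cells were sequenced. The fractions of a tumor come from 1 mouse, so a difference between the tumors is a difference between 2 animals, and the p-values below measure only whether it repeats in the 2 sorted fractions.

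MYC drives growth and division, and cells that carry deregulated MYC are normally checked by p19Arf, a product of Cdkn2a, which blocks Mdm2 and so lets p53 (encoded by Trp53) accumulate and halt or kill the cell. Lymphomas of MYC-transgenic mice are known for losing either end of this pathway. Each B cell also rearranges 1 heavy-chain and usually 1 light-chain V gene, so the V genes read by a lymphoma mark the clone it grew from.

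Marker genes placed all 4 libraries in the B cell lineage. Cd79a, the signalling chain of the B cell receptor, stood at 147 and 120 TPM (Tom- and Tom+ cells of tumor #1) against 346 and 306 TPM (the same fractions of tumor #2), an order that is kept throughout. The 8 T cell markers summed to 1.58 and 2.13 against 10.5 and 7.56 TPM, the 9 macrophage and monocyte markers to 11.3 and 11.2 against 23.3 and 23.7 TPM, and the 6 erythroid markers to 21.5 and 17.6 against 0.619 and 0.967 TPM. Among defining genes, Lyz2 of macrophages did not exceed 1.41 TPM and S100a8 of neutrophils was at 3.003 TPM in the Tom- library of tumor #2 and listed at 0 in the other 3. Of the T cell markers only Cd3d (0.329 and 0.0513 against 7.77 and 2.09 TPM) and Thy1 reached the limit for testing, and only through tumor #2. No NK cell, neutrophil, dendritic cell, platelet or stromal marker reached the limit for testing. Mitochondrial genes took 6.61% and 8.67% of TPM in tumor #1 and 14.4% and 15.6% in tumor #2, and ribosomal protein genes 13.4% and 13.3% against 10.9% and 9.61%. The part of these other cell types and gene classes in the differences below was not tested, and in bulk RNA fewer cells of a type and less RNA per cell cannot be told apart. TPM keeps no read number, so the depth of each library is unknown.

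Across the genome, more genes were higher than lower in tumor #2. A gene was called when its log2(TPM + 1) difference was at least 1 (2-fold) in the Tom- cells and, with the same sign, in the Tom+ cells. By this rule 1343 genes (11.8% of those tested) were higher in tumor #2 and 352 (3.1%) were lower, which is 14.9% in either direction, and 162 genes were past 2-fold in opposite directions in the fractions. 419 genes were past 4-fold and 55 past 16-fold in both fractions. limma's moderated test, with Tom status as a block, called 382 genes higher (3.37%) and 109 lower (0.961%) at an adjusted p below 0.05, and 488 of these 491 (4.33%) were also past 2-fold in both fractions. With trimmed-mean scaling limma's balance turned, to 457 higher and 524 lower. The smallest adjusted p-value was 0.0226, and 4156 genes (36.7%) had an unadjusted p below 0.05. limma's count ran from 1 to 2296 over the alternatives with 4 libraries and was 0 without any 1 of them, so the fold rule is used for the counts below and limma's adjusted p is given for single genes.

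Scale matters for direction. The median difference of all tested genes was 0.20 on the log2(TPM + 1) scale, and it moved to -0.097 with trimmed-mean scaling and to -0.078 with quantile normalization. The split of higher to lower calls moved with it, from 1343 and 352 to 924 and 654 and to 794 and 630, respectively. Medians of gene lists are therefore given relative to the median of all tested genes. The filter on low values also matters, since 791 tested genes (6.98%) were at 1 TPM only in tumor #2 and 486 of these were called higher, while 202 (1.78%) were so only in tumor #1 and 123 of these were called lower. Among the 8093 genes with a mean of at least 5 TPM, 9.86% were higher and 2.68% lower.

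The tumor suppressor Trp53 and Cdkn2a, which lies upstream of it, differed in opposite directions. Trp53 (ENSMUSG00000059552), the gene of p53, stood at 86.2 and 99.5 against 0.0870 and 0.145 TPM. The tumors did not overlap, and the difference was -6.39 (SE 0.19, limma adjusted p = 0.0444) on the log2(TPM + 1) scale. Wrap53 (ENSMUSG00000041346), which starts next to Trp53 on the other strand and encodes a protein that brings RNA of telomerase to Cajal bodies, stood at 6.42 and 6.43 TPM in tumor #1 and was listed at 0 in both libraries of tumor #2 (adjusted p = 0.0460). Cdkn2a (ENSMUSG00000044303), which encodes the cell cycle inhibitors p16Ink4a and p19Arf, stood at 0.682 and 1.35 against 47.0 and 42.2 TPM. Its difference was 4.52 (SE 0.26, adjusted p = 0.0444), with a mean 43.9-fold higher in tumor #2. Values are summed per gene, so transcripts of p16Ink4a and p19Arf cannot be told apart. Strand was not stated for the counting, and in the annotation used here for positions Trp53 and Wrap53 do not overlap.

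Trp53 lies on chromosome 11 (GRCm38, chr11:69580359-69591873, plus strand) and Wrap53 at chr11:69561758-69580255 on the minus strand. The sequence between their RefSeq start sites is shown because both genes were near or at 0 in tumor #2, and it spans 108 bases between the starts followed by the first 30 bases of Trp53 (chr11:69580251-69580388, plus strand, GRCm38.p6). Capitals mark CACGTG, the E-box that MYC and its partner MAX are known to bind, which begins 10 bases after the Trp53 start.
Trp53 and Wrap53 start sites: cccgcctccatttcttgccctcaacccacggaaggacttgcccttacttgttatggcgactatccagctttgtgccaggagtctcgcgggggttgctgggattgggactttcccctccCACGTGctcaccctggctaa
CACGTG, which reads the same on both strands, is found in 7.15% of the 32851 RefSeq promoter windows of 300 bases (250 before and 50 after the start). Whether the sequence is present in the DNA of tumor #2 was not measured.

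None of the tested genes farther from Trp53 was called lower in tumor #2. Within 500 kb of its start, 32 other genes were tested, 8 were higher and 0 were lower in tumor #2, and their differences ran from -1.33 to 2.55 with a median of 0.23, near the 0.20 of all genes. On the side of Trp53 the nearest tested gene was Fxr2, an RNA-binding protein gene whose start lies 52.6 kb away, with 73.1 and 72.3 against 74.7 and 59.7 TPM. On the side of Wrap53 it was Kdm6b, which encodes a histone H3 lysine demethylase, 167 kb away, with 2.17 and 3.31 against 3.70 and 3.31 TPM. Between these 2 genes the tables hold only Trp53, Wrap53 and genes below the limit for testing. Of the latter, Dnah2, Shbg and Sat2 were listed at 0 in all 4 libraries, Atp1b2, a sodium pump subunit gene 25.6 kb from the Trp53 start, stood at 0.565 and 1.28 against 0.0305 and 0 TPM, and Efnb3, an ephrin gene, at 0.0858 and 0.278 against 0 and 0 TPM. Mpdu1, which acts in glycosylation, stood at 21.5 and 24.6 against 21.4 and 33.3 TPM. Neither Fxr2, Kdm6b nor Mpdu1 was past 2-fold in both fractions. Chrnb1, an acetylcholine receptor subunit gene, stood at 0.265 and 1.71 against 11.8 and 8.15 TPM and was the highest of the neighbors by mean difference. Vamp2, a vesicle fusion gene, and Acap1, which acts in receptor recycling, were higher as well, the former with 6.67 and 9.68 against 20.6 and 26.9 TPM and the latter with 16.9 and 17.0 against 61.5 and 52.4 TPM. Near Cdkn2a, the neighboring Mtap, an enzyme of methionine salvage that is often deleted together with it, stood at 30.9 and 33.6 against 23.99 and 28.5 TPM and was not past 2-fold.

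**Figure D1:**
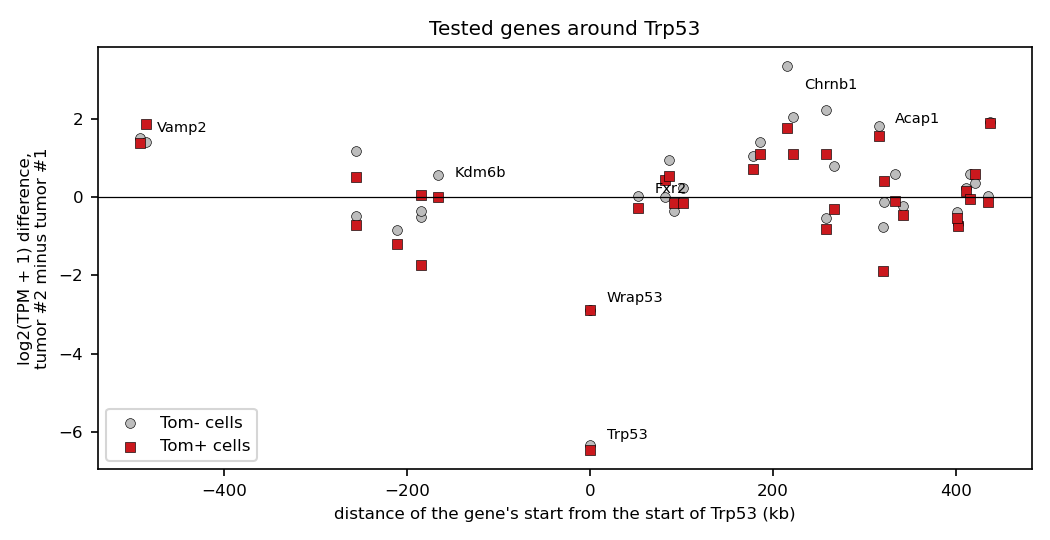
The log2(TPM + 1) difference of tumor #2 minus tumor #1 is plotted for each tested gene within 500 kb of Trp53, against the distance of its start from that of Trp53 in kb, with circles for Tom- and squares for Tom+ cells. Trp53 and Wrap53 lie at -6.39 and -2.89 on average, while the 32 other genes lie between -1.33 and 2.55.

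Genes that p53 is known to activate had no common direction. Of 40 such genes listed, 33 were tested, and 6 were higher (18.2%, beside 11.8% of all genes) and 0 lower in tumor #2. Their median lay -0.04 from that of all genes, between -0.10 and 0.17 over the alternatives, so that it has no stable direction. Cdkn1a, the classical target that encodes the cell cycle inhibitor p21, was at 0.568 and 0.123 against 1.47 and 0.266 TPM and fell below the limit for testing. Mdm2, which is both a target and the main inhibitor of p53, stood at 21.1 and 19.7 against 20.6 and 21.1 TPM. Bax, a killer of the BCL2 family, stood at 166 and 152 against 99.4 and 162 TPM. The libraries of the tumors overlapped for both. Among the higher targets, Ddit4, an inhibitor of mTOR, stood at 3.68 and 3.78 against 43.0 and 33.1 TPM (difference 3.03, limma adjusted p = 0.0444). Trp53inp1, a stress protein gene, stood at 14.5 and 12.7 against 47.8 and 64.9 TPM, Pml, which forms nuclear bodies, at 32.9 and 24.6 against 89.1 and 86.6 TPM, and Sesn1, another mTOR regulator, at 12.4 and 10.9 against 27.9 and 40.0 TPM. With trimmed-mean scaling 3 of the 33 were called higher. 3 of the 33 were at 1 TPM only in tumor #2 and 1 only in tumor #1. Among the 22 with a mean of at least 5 TPM, 5 were higher and 0 lower. Of 18 tested regulators of p53, Cdkn2a and Rchy1, a ubiquitin ligase gene of chromosome 5 (15.4 and 15.9 against 37.4 and 37.3 TPM), were higher and Trp53 and Wrap53 lower. That is 11.1% in each direction, beside 11.8% higher and 3.1% lower of all genes. The kinase genes Atm and Chek1 were not past 2-fold, with 55.8 and 79.3 against 68.9 and 74.5 TPM for Atm and 63.1 and 57.6 against 47.5 and 44.5 TPM for Chek1.

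Beyond Trp53, a set of genes was present in 1 tumor and near 0 in the other. With at least 10 TPM in both libraries of 1 tumor and below 1 TPM in both of the other, 66 genes (0.582% of those tested) were read in tumor #2 alone, 41 of them protein-coding, and 13 (0.115%) in tumor #1 alone, 9 of them protein-coding. Among the former were 18 pseudogenes, and 5 genes lay on contigs not placed on a chromosome, which often hold near-identical gene copies whose values are uncertain. The genes named next were chosen by the size of their difference, and S100a6, Ifi213, Sri and Reln did not meet this rule. The protein-coding gene with the largest difference, V genes aside, was S100a6, a calcium-binding protein gene of chromosome 3, with 2.05 and 1.89 against 668 and 382 TPM (difference 7.41, SE 0.25, adjusted p = 0.0444). Ifi213, an interferon-inducible gene of the Ifi200 cluster on chromosome 1, stood at 0.827 and 1.19 against 86.5 and 98.1 TPM. Sri, which encodes the calcium-binding protein sorcin, stood at 1.77 and 0.174 against 77.4 and 74.2 TPM. Reln, which encodes the secreted protein reelin and is known from neurons, stood at 6.54 and 12.4 against 214 and 343 TPM. Nbdy, which encodes a micropeptide of P-bodies, stood at 0.533 and 0 against 72.8 and 40.6 TPM. For each of these genes the libraries of tumor #2 were all above those of tumor #1, which follows largely from choosing genes by their difference.

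The other genes among the 12 with the largest differences in this direction belong to multigene families or are gene models with no known role. C130026I21Rik, on chromosome 1, stood at 3.96 and 2.60 against 132 and 137 TPM. Gm14295 and 2210418O10Rik both lie in a zinc finger gene cluster of chromosome 2, the former listed at 0 in both libraries of tumor #1 and at 58.2 and 167 TPM in the other. Gm10985, Gm17604 and Gm10181 were listed at 0 in tumor #1 too. Gm8369 stood at 0.474 and 0.347 against 61.9 and 187 TPM and is a direct neighbor, among tested protein-coding genes, of the membrane protein gene Ms4a6b on chromosome 19, which stood at 0.131 and 0.0944 against 16.2 and 26.5 TPM. Such runs of neighbors were rare. Casp1 and Casp4, caspases that process inflammatory cytokines and open membrane pores, lie side by side on chromosome 9 and stood at 0.504 and 0.109 against 15.9 and 12.8 TPM for Casp1 and at 0.184 and 0.149 against 12.02 and 18.3 TPM for Casp4. Another run lies on an unplaced contig. Asns, which makes asparagine, was also read in tumor #2 alone, with 0.395 and 0.682 against 33.8 and 27.7 TPM.

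The 12 protein-coding genes with the largest differences in the opposite direction were led, after Trp53, by Ly6k, a GPI-anchored surface protein gene. It stood at 54.9 and 48.0 against 0.218 and 0 TPM (difference -5.57, SE 0.20, adjusted p = 0.0444). Lef1, a transcription factor of early lymphocytes that acts with β-catenin, stood at 18.4 and 18.4 against 0.332 and 0.254 TPM. It lies on chromosome 3, most of whose genes lay above the median of all genes. Kbtbd12, a Kelch protein gene, stood at 32.5 and 19.9 against 0 and 0.167 TPM. Xlr4a, Xlr4b and Xlr4c, near-identical neighbors on the X chromosome between which reads may be split, stood between 9.88 and 20.3 TPM in tumor #1 and did not exceed 0.242 TPM in tumor #2. Cox6a2, a subunit of cytochrome c oxidase, stood at 23.4 and 10.5 against 0.734 and 0 TPM. Gkap1, Gtf2ird1 and Oaf completed the list with Hbb-bs, an adult β-globin gene of red cells, which stood at 18.8 and 16.1 against 0 and 0.699 TPM. Xlr4b, Gkap1 and Gtf2ird1 did not meet the rule of at least 10 TPM in 1 tumor and below 1 TPM in the other.

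**Figure D2:**
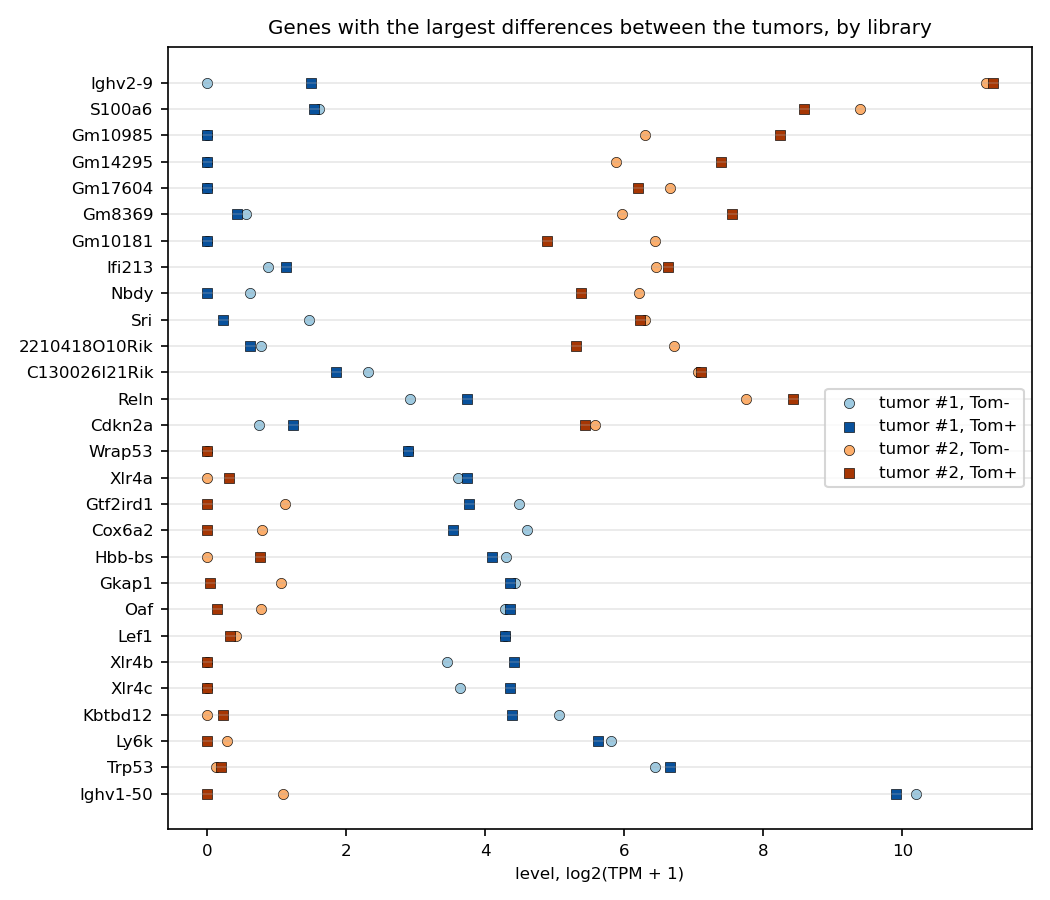
Levels as log2(TPM + 1) are plotted for each library (circles Tom-, squares Tom+, blue tumor #1, orange and brown tumor #2) for the 12 protein-coding genes with the largest differences in each direction, with Wrap53, Cdkn2a and the leading heavy-chain V gene of each tumor. Because genes were chosen for their differences, both libraries of 1 tumor lie apart from both of the other in every gene shown. Trp53 stands at 86.2 and 99.5 against 0.0870 and 0.145 TPM.

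Position on the genome went with the difference for 3 chromosomes. Over the 7440 protein-coding genes with a mean of at least 5 TPM, of which 8.66% were called higher and 2.14% lower, genes of chromosome 13 were lower in tumor #2 by a median of -0.82 relative to all genes, which is 0.567-fold. Genes of chromosomes 3 and 5 were higher by 0.38 and 0.36. The medians of the other 17 chromosomes lay between -0.093 and 0.030. The same 3 chromosomes stood apart in each fraction, with -0.89 in Tom- and -0.74 in Tom+ cells for chromosome 13, 0.26 and 0.45 for chromosome 3, and 0.31 and 0.35 for chromosome 5, while in either fraction the others stayed between -0.133 and 0.043. Copy number was not measured in these files.

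On chromosome 13, 86.6% of 262 genes lay below the median of all genes, 47 were called lower and 5 higher. The chromosome holds 3.52% of the genes and 29.6% of the lower calls. Its genes took 2.14% and 2.05% of TPM in tumor #1 and 1.05% and 1.15% in tumor #2. The shift ran along its whole length, since the 10 successive windows of 25 genes had medians from -1.03 to -0.39. It was no smaller in genes with high values, at -0.91 for a mean of at least 20 TPM and -0.98 for at least 50 TPM. Rps23, a ribosomal protein gene, stood at 1059 and 1148 against 480 and 438 TPM. Btf3, which encodes a subunit of the nascent polypeptide-associated complex, stood at 744 and 733 against 293 and 293 TPM. Dek, a chromatin protein gene, stood at 351 and 333 against 122 and 128 TPM. Hnrnpk, which encodes an abundant RNA-binding protein, stood at 1371 and 1256 against 796 and 681 TPM and was not past 2-fold.

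On chromosome 3, 71.0% of 352 genes lay above the median of all genes, 58 were called higher and 7 lower, and the 14 windows had medians from 0.17 to 0.74. It holds 4.73% of the genes and 9.01% of the higher calls. On chromosome 5, 71.1% of 512 genes lay above that median, 62 were called higher and 3 lower, and the 20 windows had medians from 0.16 to 0.60. With higher levels its median was smaller, 0.32 for a mean of at least 20 TPM and 0.26 for at least 50 TPM, while that of chromosome 3 was larger, 0.44 and 0.50. It holds 6.88% of the genes and 9.63% of the higher calls. Among well expressed genes of chromosome 3, Cnn3, which encodes the actin-binding protein calponin 3, stood at 211 and 253 against 786 and 511 TPM, and Mfn1, which fuses mitochondria, at 147 and 120 against 252 and 301 TPM. On chromosome 5, Mrps18c of the mitochondrial ribosome stood at 377 and 342 against 556 and 617 TPM, and Srrt, which acts in RNA processing, at 255 and 303 against 426 and 433 TPM. Of these 4 genes only Cnn3 was past 2-fold in both fractions. Windows of the other chromosomes ranged from -0.41 to 1.15, and the highest lay on chromosome 2 over the zinc finger cluster that holds Gm14295. Without the genes of chromosomes 3, 5 and 13, an alternative chosen after seeing the data, 1099 genes were called higher and 266 lower.

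**Figure D3:**
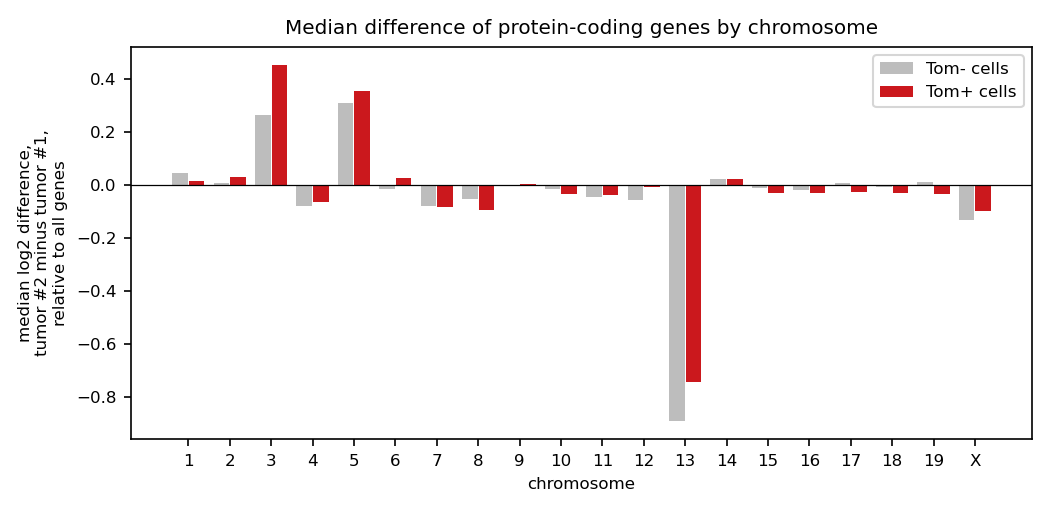
Bars give the median log2(TPM + 1) difference of tumor #2 minus tumor #1 of protein-coding genes per chromosome, relative to all such genes, in Tom- (gray) and Tom+ (red) cells. Chromosome 13 lies at -0.89 and -0.74 and chromosomes 3 and 5 between 0.26 and 0.45, while the other 17 stay between -0.133 and 0.043.

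The tumors read different heavy-chain and kappa V genes. Of 113 heavy-chain V genes in the table, Ighv1-50 (chr12:115119748-115120219, minus strand) took 86.0% and 81.1% of heavy-chain V gene TPM in tumor #1 and 0.0390% and 0% in tumor #2. Ighv2-9 (chr12:113879096-113879541, minus strand) took 0% and 0.153% in tumor #1 and 82.2% and 42.4% in tumor #2. The second gene of tumor #1 was Ighv3-6, with 12.5% and 15.99% against 0% and 1.93%. In tumor #2 the second gene was Ighv12-3 in Tom- cells, with 0% and 0.0553% against 16.2% and 8.36%. In its Tom+ cells it was Ighv1-82, with 0% and 0.309% against 0.0932% and 17.0%. No heavy-chain or kappa V gene with a share of at least 5% in 1 tumor reached that share in the other.

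Among 100 kappa V genes, a pair led in tumor #1 with nearly equal shares. Igkv11-125 took 49.5% and 50.4% there and Igkv3-12 49.8% and 48.1%, and neither exceeded 0.0585% in tumor #2. In tumor #2 the leading gene was Igkv1-135, listed at 0 in both libraries of tumor #1 and at 58.4% and 32.5% in tumor #2, followed by Igkv15-103 with 28.6% and 18.3% and Igkv16-104 with 7.29% and 2.94%. The 3 lambda V genes, with sums of 17.9 and 13.3 against 127 and 158 TPM, did not separate the tumors in this way, since Iglv3 took 85.2% and 96.4% of lambda V gene TPM in tumor #1 and still 48.0% and 47.2% in tumor #2. Iglv1 took 14.8% and 3.59% against 47.6% and 47.7%, and Iglv2 0% and 0% against 4.46% and 5.05%. The joining segments differed too. Ighj2 took 86.8% and 83.7% of heavy-chain J segment TPM in tumor #1 and 5.88% and 14.7% in tumor #2, and Ighj3 took 2.95% and 2.10% against 63.3% and 37.7%. Igkj5 and Igkj1 shared the kappa J segment TPM in tumor #1, at 52.0% and 50.02% for the former and 46.5% and 48.6% for the latter, while Igkj1 led in tumor #2 with 81.4% and 62.5%.

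The germline sequences of leading segments, read from GRCm38 at the GENCODE positions, show V gene ends and heavy-chain J segments that flank the joint of the antigen-binding loop. Heavy-chain D segments and kappa J segments are not printed. The last 90 bases of each V gene are printed with the codon of the conserved cysteine in capitals, and each J segment with the bases of its conserved tryptophan and glycine codons in capitals.
Ighv1-50 (chr12:115119748-115119837, minus strand): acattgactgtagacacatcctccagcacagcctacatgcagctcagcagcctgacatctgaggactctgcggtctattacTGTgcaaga
Ighv2-9 (chr12:113879096-113879185, minus strand): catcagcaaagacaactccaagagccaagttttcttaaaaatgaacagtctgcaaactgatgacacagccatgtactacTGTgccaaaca
Ighj2 (chr12:113429468-113429515, minus strand): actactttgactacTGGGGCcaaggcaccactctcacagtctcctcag
Ighj3 (chr12:113429085-113429132, minus strand): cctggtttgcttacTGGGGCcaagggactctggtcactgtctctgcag
Igkv3-12 (chr6:70518760-70518849, plus strand): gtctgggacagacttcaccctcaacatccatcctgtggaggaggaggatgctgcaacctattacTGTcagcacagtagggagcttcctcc
Igkv11-125 (chr6:67913963-67914052, plus strand): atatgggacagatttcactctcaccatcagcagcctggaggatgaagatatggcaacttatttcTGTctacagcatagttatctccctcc
Igkv1-135 (chr6:67610419-67610508, plus strand): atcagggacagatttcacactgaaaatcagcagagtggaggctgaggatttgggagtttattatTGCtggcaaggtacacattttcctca
The 2 J segments share 34 of 48 bases in an alignment without gaps. These are reference sequences, and the rearranged and possibly mutated sequences of the tumors were not read. V genes of 1 family are alike, so a 60-base read can be split between them.

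Usage was broader in the Tom+ cells of tumor #2 than in the other 3 libraries. There, V genes that reached 5% in no library took 30.3% of heavy-chain and 39.4% of kappa V gene TPM, against 1.51%, 2.36% and 1.45% and against 0.700%, 1.44% and 5.53% in the other 3. 41 heavy-chain V genes were at 1 TPM or more in that library and 11, 13 and 16 in the others. Beside these, Ighv1-82 took 17.0% there and Igkv4-63 6.78%, the latter listed at 0 in the other 3 libraries. The same library held 209 TPM of Jchain and 31.0 TPM of Igha, genes of antibody-secreting cells, which did not exceed 1.72 and 0.207 TPM elsewhere. Not all plasma cell markers followed, with Slamf7 at 65.3 and 63.9 against 38.7 and 31.8 TPM and Sdc1, the gene of CD138, at 1.95 and 1.78 against 0 and 0.428 TPM, so that the sum of the 6 markers, 79.1 and 79.5 against 58.8 and 263 TPM, rests on Jchain.

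**Figure D4:**
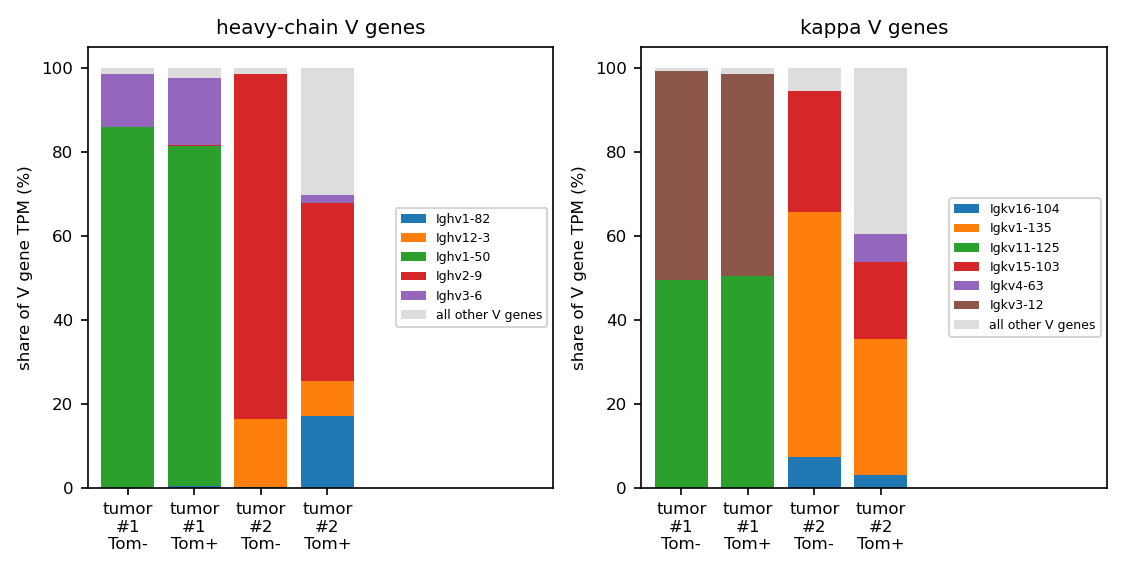
Stacked bars give the share of summed V gene TPM in percent for heavy-chain (left) and kappa (right) V genes in each library, for every V gene with at least 5% in any library, with all others in gray. Ighv1-50 fills 86.0% and 81.1% of the heavy-chain bars of tumor #1 and Ighv2-9 82.2% and 42.4% of those of tumor #2.

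A part of the genes of B cell identity and of the B cell receptor was higher in tumor #2, and few were lower. Of 30 tested genes of receptor signalling, 11 were higher (36.7%) and 1 lower (3.33%), beside 11.8% and 3.1% of all genes. Their median lay 0.57 above that of all genes (0.55 to 0.67 over the alternatives), though only 5 were called higher with trimmed-mean scaling. Blk, a kinase of the Src family next to the receptor, stood at 7.78 and 5.15 against 65.3 and 56.6 TPM (adjusted p = 0.0444). Cd22, an inhibitory co-receptor, stood at 127 and 89.8 against 390 and 364 TPM, and Cd79b at 157 and 139 against 437 and 351 TPM. Fcgr2b, the inhibitory Fc receptor, stood at 30.5 and 31.6 against 81.3 and 95.2 TPM. The gene that was lower was Fyn, another kinase of the Src family, at 36.7 and 56.5 against 6.59 and 6.005 TPM. Syk, which passes the signal on and lies on chromosome 13, stood at 62.7 and 57.3 against 38.6 and 38.1 TPM, and Btk at 46.3 and 43.5 against 61.5 and 62.7 TPM, neither past 2-fold.

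Of 14 tested genes of mature follicular B cells, 10 were higher (71.4%, beside 11.8% of all genes) and 0 lower. Their median lay 1.27 above that of all genes (1.17 to 1.37 over the alternatives), and 6 were called higher with quantile normalization. 2 of the 14, Cxcr5 among them, were at 1 TPM only in tumor #2 and so had to be higher there. Among the 12 with a mean of at least 5 TPM, 8 were higher and 0 lower. Ms4a1, which encodes the surface protein CD20, stood at 32.9 and 20.5 against 263 and 209 TPM (difference 3.12, adjusted p = 0.0444). Ighd, the heavy chain of IgD, stood at 44.8 and 40.1 against 124 and 159 TPM, while Ighm, that of IgM, stood at 1334 and 1255 against 2191 and 3652 TPM and was not past 2-fold in both fractions. S1pr1, which lets lymphocytes leave tissue, stood at 11.2 and 12.1 against 36.6 and 42.8 TPM, and Cxcr5, the receptor that guides B cells into follicles, at 0.577 and 0.623 against 3.68 and 8.21 TPM. In the marginal zone and B1 list 6 of 12 tested genes were higher (50%, beside 11.8% of all genes) and 0 lower. Among the 8 with a mean of at least 5 TPM, 4 were higher and 0 lower. Zbtb32 stood at 0.0412 and 0.222 against 8.52 and 8.68 TPM, so it passed the filter only through tumor #2 and had to be higher there. Dtx1, a regulator of Notch, stood at 1.11 and 0.717 against 16.4 and 10.9 TPM, and Notch2 itself at 3.03 and 2.70 against 11.2 and 12.5 TPM. Of the 6 higher genes, 3 lie on chromosomes 3 and 5.

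Stage markers of earlier B cells went both ways. Of 13 tested genes of B cell precursors, 3 were higher (23.1%) and 2 lower (15.4%), beside 11.8% and 3.1% of all genes. Rag2 was at 1 TPM only in tumor #2 and Lef1 only in tumor #1, so their directions were fixed. Among the 11 with a mean of at least 5 TPM, 2 were higher and 2 lower. Vpreb3, a chaperone of the immature receptor, stood at 62.8 and 46.7 against 242 and 148 TPM, and Rag2, which cuts DNA for V gene joining, at 0.196 and 0.295 against 4.43 and 2.68 TPM. Ebf1, a founding factor of the lineage, stood at 26.9 and 21.3 against 87.7 and 50.5 TPM. The lower genes were Lef1 and Sox4, the latter on chromosome 13 with 14.9 and 16.9 against 5.58 and 2.94 TPM. None of the 7 tested genes of the germinal center list was past 2-fold in both fractions. Bcl6 was not among the tested genes. Of 26 tested transcription factors of the B lineage, Pou2f2, Irf8 and Ebf1 were higher (11.5%, near the 11.8% of all genes) and none lower. Pax5, the keeper of B cell identity, stood at 241 and 284 against 511 and 328 TPM, and Pou2af1 at 155 and 144 against 190 and 184 TPM, neither past 2-fold in both fractions.

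Among the pathway lists, interferon-stimulated genes had the largest share of higher calls (62.9%, beside 11.8% of all genes) after the mature follicular list (71.4%). Of 38 listed, 35 were tested, and 22 were higher and 0 lower in tumor #2, with a median 1.36 above that of all genes (1.23 to 2.45 over the alternatives). 12 of the 35 were at 1 TPM only in tumor #2 and so had to be higher there, and among the 18 with a mean of at least 5 TPM, 10 were higher and 0 lower. Trim30a, an inducible regulator of Toll-like receptor signalling, stood at 2.41 and 1.56 against 63.1 and 51.0 TPM (difference 4.29, adjusted p = 0.0444). Ifit3, an antiviral protein gene, stood at 0.203 and 0.121 against 12.8 and 14.1 TPM, Mx1, an antiviral GTPase gene, at 0.471 and 0.449 against 8.59 and 6.98 TPM, and Gbp3, a guanylate-binding protein gene of chromosome 3, at 2.86 and 3.12 against 19.8 and 22.2 TPM. The transcription factor gene Irf7 stood at 0.318 and 2.07 against 14.1 and 5.64 TPM. Not every member differed. Ifit2 stood at 4.25 and 4.70 against 4.68 and 4.21 TPM and Ifih1, an RNA sensor, at 2.46 and 0.653 against 2.92 and 0.581 TPM.

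NF-kB genes were higher in part. Of 23 tested, 10 were higher (43.5%, beside 11.8% of all genes) and 0 lower. Their median lay 0.77 above that of all genes (0.34 to 1.09 over the alternatives), and 4 of the 13 with a mean of at least 5 TPM were higher. 3 of the 23, Tnfaip3 among them, were at 1 TPM only in tumor #2 and so had to be higher there. Birc3, an apoptosis inhibitor that NF-kB induces, stood at 25.4 and 22.8 against 149 and 156 TPM (adjusted p = 0.0444), and Cd40, the receptor for T cell help, at 3.69 and 2.30 against 16.3 and 12.1 TPM. Nfkbia and Tnfaip3, which switch the pathway off and are induced by it, stood at 5.73 and 7.20 against 19.4 and 29.8 TPM and at 0.0770 and 0.103 against 3.93 and 3.32 TPM, respectively. The subunit genes Rel, Nfkb2 and Relb were higher, while Nfkb1 with 24.4 and 23.998 against 45.6 and 45.8 TPM and Rela with 6.91 and 7.54 against 10.3 and 9.57 TPM were not past 2-fold.

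Of 13 tested MHC class II genes 4 were higher (30.8%, beside 11.8% of all genes) and 0 lower. H2-Oa was at 1 TPM only in tumor #2 and so had to be higher there. H2-Oa and H2-Ob, the chains of the modulator that restrains peptide loading, stood at 0.900 and 0.647 against 10.4 and 9.83 TPM and at 20.5 and 19.9 against 99.6 and 90.8 TPM. The co-stimulatory Cd86 stood at 5.19 and 3.36 against 17.1 and 19.8 TPM, and H2-Eb2 at 3.43 and 2.70 against 8.92 and 6.93 TPM. H2-Eb1, the gene of the E beta chain, stood at 158 and 101 against 100 and 78.6 TPM and was not past 2-fold. The loading genes H2-DMa, H2-DMb1 and H2-DMb2 were not past 2-fold in both fractions, nor were the genes of the classical A chains, with H2-Aa at 235 and 148 against 155 and 134 TPM and H2-Ab1 at 196 and 159 against 152 and 126 TPM. Of 22 genes of MHC class I and the immunoproteasome, the nonclassical genes H2-Q6, H2-Q7 and H2-T24 were higher and none was lower. This is 13.6%, near the 11.8% of all genes, and 1 of the 20 with a mean of at least 5 TPM. H2-Q6 and H2-Q7 are near-identical, so their values are uncertain. H2-Q6 was also at 1 TPM only in tumor #2 and so had to be higher there. H2-K1, a classical chain, stood at 77.5 and 75.7 against 152 and 188 TPM.

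Of 14 tested genes of the BCL2 family, which holds survival and death genes, 3 were higher (21.4%, beside 11.8% of all genes) and 0 lower. 3 of the 14, Bcl2 among them, were at 1 TPM only in tumor #2 and so had to be higher there. 1 other was at 1 TPM only in tumor #1. Among the 8 with a mean of at least 5 TPM, 2 were higher and 0 lower. Bcl2, a survival gene, stood at 0.519 and 0.368 against 5.55 and 6.95 TPM, Mcl1, another survival gene, on chromosome 3, at 47.4 and 49.998 against 144 and 143 TPM, and Bmf, which promotes death, at 7.09 and 3.11 against 24.9 and 21.2 TPM. Bcl2l11, the gene of the death-promoting protein Bim, stood at 9.21 and 8.40 against 14.6 and 12.7 TPM and was not past 2-fold. In the PI3K, AKT and mTOR list only the regulatory subunit gene Pik3r3 of 27 tested genes was past 2-fold, with 0.609 and 1.11 against 4.74 and 4.26 TPM. Of 26 chromatin genes, Tet2, which oxidizes methylated cytosine, Setd2 and Crebbp were higher (11.5%, near the 11.8% of all genes), with 3.02 and 5.12 against 19.7 and 21.2 TPM for Tet2, which lies on chromosome 3. Of 20 tested genes of homing and adhesion, 7 were higher (35%, beside 11.8% of all genes) and 0 lower. 3 of the 20 were at 1 TPM only in tumor #2 and so had to be higher there, and 1 was so only in tumor #1. Among the 15 with a mean of at least 5 TPM, 4 were higher and 0 lower. Pecam1, an adhesion receptor, stood at 14.4 and 14.2 against 49.7 and 43.9 TPM. The chemokine receptor Cxcr4, at 60.4 and 50.7 against 85.7 and 95.2 TPM, was not past 2-fold.

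Mouse Myc was close in the tumors, and genes of growth and division lay below the median of all genes in tumor #2. Myc stood at 38.1 and 39.3 against 44.9 and 45.6 TPM, and Max, its partner, at 246 and 200 against 232 and 192 TPM. The human-derived transgene is not in the mouse annotation, so its RNA was not measured apart. Mxd4, a MAX partner that opposes MYC, and Mlxip, which senses glucose, were the higher genes of the network, with 10.2 and 7.33 against 67.1 and 46.4 TPM and 17.4 and 17.3 against 60.8 and 62.8 TPM, and both lie on chromosome 5. Of 42 known MYC targets and ribosome biogenesis genes, 0 were higher and 1 was lower (2.38%), beside 11.8% and 3.1% of all genes. The lower gene was Bcat1, which breaks down branched-chain amino acids, with 79.7 and 95.5 against 30.6 and 37.9 TPM. The median of the 42 genes lay -0.48 from that of all genes (-0.52 to -0.18 over the alternatives). The nucleolar gene Npm1 stood at 2370.1 and 2507 against 1607 and 1615 TPM, and Odc1, which makes polyamines, at 241 and 268 against 185 and 154 TPM.

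Of 41 tested genes of the cell cycle, 2 were higher (4.88%) and 4 lower (9.76%), beside 11.8% and 3.1% of all genes. Their median lay -0.68 from that of all genes (-0.74 to -0.58 over the alternatives). With trimmed-mean scaling 2 were called higher and 15 lower. Ccnd2, which encodes cyclin D2, stood at 0.249 and 0.134 against 17.7 and 7.43 TPM, and the other higher gene was Cdkn2a. Ccnd2 was at 1 TPM only in tumor #2 and so had to be higher there. The lower genes were Ccnb1, the mitotic cyclin B1 on chromosome 13, with 79.4 and 71.4 against 25.8 and 19.0 TPM, the helicase gene Mcm5 with 125 and 141 against 57.4 and 45.8 TPM, Ccne2 with 32.1 and 28.8 against 13.8 and 10.4 TPM, and E2f1 with 13.5 and 13.7 against 5.16 and 4.70 TPM. Pcna, the sliding clamp of replication, stood at 404 and 450 against 231 and 184 TPM and was not past 2-fold in the Tom- cells. Rb1 stood at 38.2 and 27.9 against 28.4 and 34.1 TPM, with libraries of the tumors overlapping.

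Of 39 genes of glycolysis and nucleotide synthesis, 2 were higher (5.13%) and 3 lower (7.69%), beside 11.8% and 3.1% of all genes. Their median lay -0.67 from that of all genes (-0.72 to -0.45 over the alternatives), with 2 higher and 12 lower under trimmed-mean scaling. Eno1, which encodes enolase, stood at 1261 and 1200.5 against 621 and 535 TPM, and Tkt of the pentose phosphate pathway at 321 and 287 against 137 and 132 TPM. Hk1, a hexokinase gene, was higher at 0.495 and 0.340 against 6.83 and 4.84 TPM, as was Aldoc, a brain aldolase gene, at 0.406 and 0.571 against 5.18 and 4.90 TPM. Both were at 1 TPM only in tumor #2 and so had to be higher there. Among the 35 genes of this list with a mean of at least 5 TPM, 0 were higher and 3 lower. Of 20 tested genes of ER stress and the ATF4 response, Asns, Herpud1 and Dnajb9 were higher (15%, near the 11.8% of all genes) and none lower. Atf4 itself stood at 71.0 and 90.6 against 62.3 and 64.8 TPM. Of the 13 mitochondrially encoded genes only mt-Atp8 was past 2-fold in both fractions, and its value rests on a short gene that overlaps mt-Atp6. By sign alone, 12 of the 13 were higher in both fractions and 0 lower. The median of the 13 lay 0.46 above that of all genes (0.42 to 0.85 over the alternatives).

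**Figure D5:**
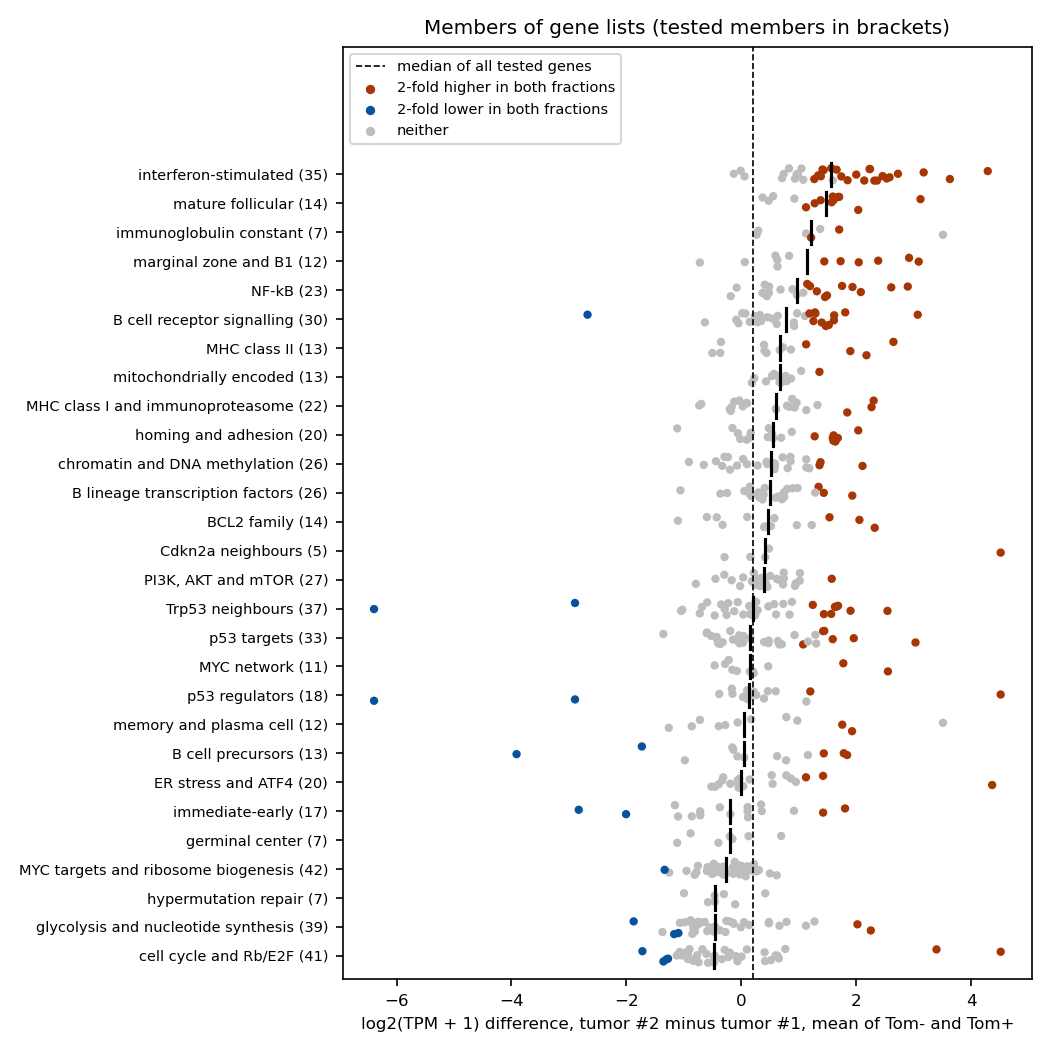
Each point is a tested member of a gene list, placed by its log2(TPM + 1) difference of tumor #2 minus tumor #1 (mean of Tom- and Tom+), with the list median as a black bar and the median of all tested genes as a dashed line. Lists run from interferon-stimulated genes at the top, with 22 of 35 higher, to the cell cycle at the bottom, with 2 of 41 higher and 4 lower.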

How the data were processed

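RNA was sequenced from Tom- and Tom+ B220+ IgM+ spleen cells of 1 mouse per tumor. The authors deposited TPM per gene, made with CASAVA 1.8, Cutadapt and Salmon 1.9 on GRCm38 from single reads of 60 bases (reads under 30 bp discarded); the strand setting is not given in the sources used here. The count-based edgeR test of the study needs read counts and was not run here. Symbols and positions came from GENCODE M21, which lacked 214 of the IDs.

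TPM were set to log2(TPM + 1), and fold changes on this scale understate those of low genes. Genes with at least 1 TPM in at least 2 libraries were tested in limma 3.58.1 (R 4.3.3) with terms for Tom status and tumor, a variance trend and Benjamini-Hochberg adjustment over all of them. The fit left 1 residual degree of freedom and had 2.21 prior degrees of freedom. Its code was also run on simulated data with equal noise in every gene, so that run does not give its error rate here. No replicate numbers are given in the labels, and the block is the sort fraction of the same mouse. The calls used in the text rest on the 2-fold rule in both fractions. Trimmed-mean scaling left out 30% of log ratios and 5% of levels at each end.

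Named were Trp53, Wrap53, Cdkn2a, Ighv1-50, Ighv2-9, the 12 protein-coding genes in each direction with the largest smaller-of-2 difference, up to 4 called members and the defining members of each list, neighbors of Trp53 and Cdkn2a, V genes with at least 5% in any library and runs of on/off genes. Examples of chromosomes 3, 5 and 13 and other members were chosen after their values were seen, and some genes are not reported here. The comparison, the lists and the rule were chosen with earlier results of these data known. Figures were drawn with matplotlib 3.10.9.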

Additional observations from a re-analysis of the deposited data

Results flagged for a closer look

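Several lists had medians of opposite sign in the Tom- and Tom+ cells on the log2(TPM + 1) scale (tumor #2 minus tumor #1), and the difference between the fractions was not tested. The immediate-early list had a median of 0.52 in Tom- and of -1.10 in Tom+ cells, and its member Nr4a1, a nuclear receptor gene switched on by receptor signals, differed by 1.36 in Tom- and by -1.14 in Tom+ cells, with 0.424 and 5.12 (tumor #1, Tom- and Tom+) against 2.66 and 1.78 TPM (tumor #2). The memory and plasma cell list had -0.18 and 0.60, the ER stress and ATF4 list -0.023 and 0.28, and the germinal center list 0.0077 and -0.27. The plasma cell markers had 0.0080 and -0.078. With 2 libraries per tumor, no sample could be examined as an outlier.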

How the results depend on the processing

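limma's count of 491 genes moved to 1 with a pseudocount of 0.1, to 1 with no filter on low values, to 34 at a mean of at least 5 TPM, to 981 with trimmed-mean scaling (457 higher, 524 lower), to 21 with quantile normalization, to 940 without immunoglobulin genes, to 2296 with nuclear protein-coding genes only, to 275 without a variance trend, and to 2231 without the replicate block for Tom status. It was 0 in all 4 fits that left out 1 library, which had tumor as the only term and between 2705 and 4148 genes at an unadjusted p below 0.05. The cause was not tested. The 1695 genes past 2-fold in both fractions moved to 1015 at a mean of at least 5 TPM, to 2787 in Tom- cells alone, to 2984 in Tom+ cells alone, to 3411 at 1.5-fold and to 419 at 4-fold. The 79 genes present in 1 tumor alone moved to 41 at 20 against 2 TPM. Chromosome medians shrank with no filter, which adds genes at or near 0, to -0.24 for chromosome 13, 0.20 for chromosome 3 and 0.21 for chromosome 5, and chromosome 5 was at 0.31 in Tom- cells alone. As a share of all TPM, Ighv1-50 took 0.107% in tumor #1 and Ighv2-9 0.244% in tumor #2. All 275 alternative values kept their direction for the 12 protein-coding genes chosen in each direction, Wrap53, Cdkn2a, Ighv1-50 and Ighv2-9. Most of these genes were chosen for large differences of the same sign in both fractions, so this outcome was nearly fixed in advance. Other genes named in the text were not part of this count.

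Counts of called list members, higher and lower together, moved by over 1.5 times in 46 cases and by less in 205. With trimmed-mean scaling they were 3 for p53 targets, 1 for immunoglobulin constant genes, 6 for receptor signalling, 4 for memory and plasma cells, 1 for B lineage factors, 5 for MYC targets, 17 for the cell cycle, 14 for glycolysis, 1 for ER stress and 1 for hypermutation repair. With quantile normalization they were 1 for the germinal center, 6 for mature follicular cells, 2 for MYC targets, 5 for NF-kB, 14 for interferon-stimulated genes and 1 for hypermutation repair. At a mean of at least 5 TPM they were 5 for Trp53 neighbors, 1 for memory and plasma cells, 0 for PI3K, 4 for NF-kB, 2 for immediate-early genes, 1 for MHC class I, 10 for interferon-stimulated genes, 4 for homing and 3 for glycolysis. With nuclear protein-coding genes only they were 2 for Cdkn2a neighbors, 1 for immunoglobulin constant genes, 2 for the germinal center, 5 for memory and plasma cells, 5 for B lineage factors, 3 for PI3K, 5 for MHC class I and 6 for chromatin. With a pseudocount of 0.1 they were 1 for the germinal center, 4 for memory and plasma cells, 5 for the BCL2 family, 5 for chromatin and 1 for hypermutation repair, and with 0.5 they were 1, 4, 5 and 1 for the germinal center, memory and plasma cells, chromatin, and hypermutation repair. Without immunoglobulin genes the constant gene list had 0. Without the genes of chromosomes 3, 5 and 13, chosen after seeing the data, counts were 3 for B cell precursors, 3 for marginal zone and B1 cells and 0 for the MYC network. Read depth is unknown, so precision at low TPM could not be given, and 1 mouse per tumor limits each difference to these 2 animals.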

Other observations

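Immediate-early genes, which receptor signals and handling of cells switch on within minutes, were called in both directions. Of 17 tested genes, 2 were higher and 2 lower in tumor #2 (11.8% each, beside 11.8% and 3.1% of all genes). Fos, a subunit of the transcription factor AP-1, stood at 16.4 and 79.2 (tumor #1, Tom- and Tom+) against 5.59 and 3.19 TPM (tumor #2), and Dusp1, a phosphatase gene that dampens MAP kinases, at 2.01 and 8.60 against 0.363 and 0.317 TPM. Both libraries of tumor #1 were above both of tumor #2 for these genes, and the Tom+ library of tumor #1 was the highest of the 4. Btg2, an inhibitor of proliferation, stood at 18.5 and 20.1 against 58.7 and 48.9 TPM, and Fosl2, another AP-1 gene, at 0.858 and 0.649 against 6.46 and 4.03 TPM. Fosl2 was at 1 TPM only in tumor #2 and Dusp1 only in tumor #1, so their directions were fixed. Among the 11 with a mean of at least 5 TPM, 1 was higher and 1 lower. Egr1 was at 2.62 and 11.5 against 4.17 and 2.26 TPM, and the tumors overlapped.

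Among memory and plasma cell genes, 2 of 12 tested were higher (16.7%, beside 11.8% of all genes) and 0 lower. Cd80 was at 1 TPM only in tumor #2 and so had to be higher there, while 1 other gene was so only in tumor #1. Of the 9 with a mean of at least 5 TPM, 1 was higher and 0 lower. Cd80, a co-stimulatory ligand of memory B cells, stood at 0.347 and 0.421 against 2.94 and 4.56 TPM, and Fkbp11, a chaperone gene of secretory cells, at 2.28 and 2.88 against 14.8 and 10.7 TPM. Xbp1, which drives secretion, stood at 10.6 and 11.7 against 18.7 and 21.2 TPM and Mzb1 at 145 and 144 against 94.8 and 80.6 TPM, neither past 2-fold in both fractions. None of the 7 tested genes of hypermutation repair, among them the uracil glycosylase gene Ung at 23.9 and 25.4 against 17.9 and 17.4 TPM, was past 2-fold.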
